A study of Rattus norvegicus with 8 samples.

Results

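The genes described here are 8 genes of cholesterol synthesis and its control: Hmgcs1, Idi1, Fdft1, Sqle, Lss, Cyp51, Dhcr7 and Insig1. They were found by name, as all probes of the array files, control spots left out, that carry one of these 8 gene names. This gave 8 probes, 1 per gene, of 30367 probes and 26514 gene names in the files. Male Wistar rats aged 12 weeks gave RNA of lumbar L6S1 spinal cord, and each rat had its own array. In the stressed group, 4 rats went through chronic water avoidance (WA) stress, in which a rat sits for 1 h on a small platform surrounded by water, on 10 days, and tissue was taken 24 h after the last session. The control group held 4 rats of the same sex and age, which per the authors were handled over 10 days without the stressor. The segments were taken whole after the meninges were removed, so each value is an average over neurons, glia and vessels, and fewer cells of a type and less RNA per cell cannot be told apart. The samples are labelled as replicates of 2 groups with nothing on litter or cage, and p values measure the spread between these 8 samples.

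Cholesterol does not cross the blood-brain barrier in quantity, and the brain and spinal cord make their own from acetyl-CoA by way of mevalonate, squalene and lanosterol. Oligodendrocytes need much of it, because central myelin is rich in cholesterol. When sterol in the membrane of the endoplasmic reticulum is low, the escort protein Scap carries the transcription factor SREBP-2 (the product of Srebf2) to the Golgi, where the proteases S1P and S2P (Mbtps1 and Mbtps2) release it to raise the genes of the pathway together. Insig1 and Insig2 hold Scap in the endoplasmic reticulum when sterol is plentiful, and Insig1 is itself a target of SREBP.

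All values below are log2 signals relative to the 75th percentile of the same array, so that 0 is the 75th percentile, and fold changes are log2 differences, stressed minus control. A gene was called changed at a false discovery rate (FDR) below 0.1, adjusted over the 23677 probes whose signal exceeded background clearly on 4 or more of the 8 arrays. The 75th percentile itself lay between 1751 and 2335 units of signal. All 8 arrays were on 1 slide, with stressed rats in row 1 and control rats in row 2, so that group and row cannot be told apart. The first principal component of all tested probes (54.1% of the variance) put the 4 stressed rats and control rat 2 on one side (-46.1 to -8.23) and control rats 1, 3 and 4 on the other (39.4 to 56.3). The same split was seen in the median log2 signal of 5′ probes minus 3′ probes of 1823 transcripts, a measure that moves with RNA integrity and labelling, which was 0.083 to 0.194 in the first 5 arrays and -0.276 to -0.155 in the other 3. The markers of the labelled tissue were present: all 7 neuron, all 7 astrocyte and all 15 oligodendrocyte markers were well above background on all 8 arrays.

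In none of the 8 genes did a difference between stressed and control rats pass the test, and several of the genes varied together from rat to rat. At FDR below 0.1, limma called 0 of the 8 genes, against 3.74% of all tested probes, and at FDR below 0.05 it also called 0, against 0.477%. At an unadjusted p below 0.05 there were 2 genes, Insig1 and Dhcr7, where 20.3% of all probes passed. Insig1 was higher in stressed rats, as were 13.6% of all probes at that p, and Dhcr7 was lower, as were 6.67%. The stressed and control values overlapped in all 8 genes, while 12.1% of all probes had groups that did not overlap. The median fold change was -0.017 over the 8 genes and 0.061 over all tested probes, with 3 genes above 0 and 5 below, where 59.6% of all probes were above 0. All 8 probes were well above background on all 8 arrays and none was saturated.

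**Figure D1:**
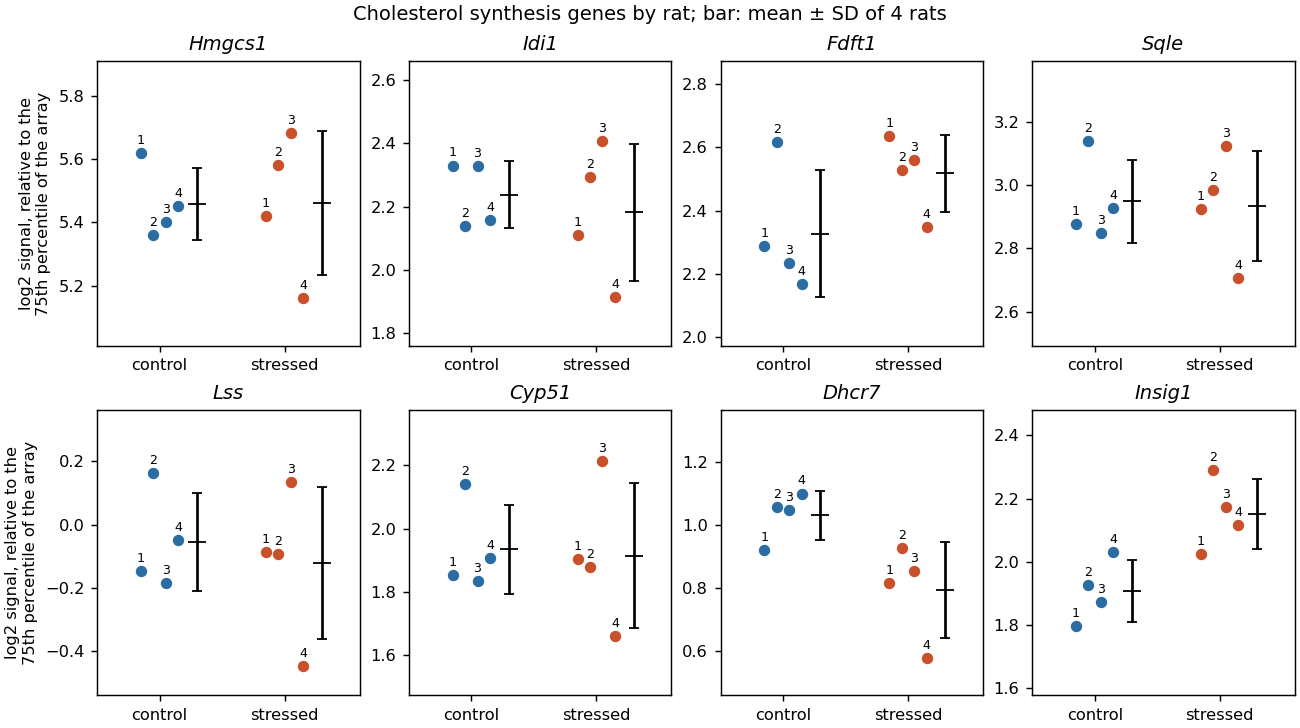
Each panel plots 1 gene, with the scaled log2 signal on the y axis (each panel spans the same 0.9 log2 units) and the 4 control and 4 stressed rats as numbered points, with the mean ± SD of each group as a bar. The groups overlap in every panel, stressed rat 4 is the lowest of the 8 rats in 6 genes, and control rat 2 sits high in Fdft1, Sqle, Lss and Cyp51 and not in Hmgcs1 and Idi1.

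Hmgcs1 encodes the cytosolic HMG-CoA synthase, an early enzyme on the way to mevalonate. Its probe (rn4, chr2:51754514-51754573) read 5.62, 5.36, 5.40 and 5.45 in control rats 1 to 4 and 5.42, 5.58, 5.68 and 5.16 in stressed rats 1 to 4. The highest and the lowest rat were both stressed, and the spread was wider in the stressed group (SD 0.228, n = 4) than in the controls (SD 0.114, n = 4). The group difference was 0.0039 (95% interval -0.28 to 0.29, adjusted p = 0.989).

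Idi1 encodes isopentenyl-diphosphate isomerase, which makes the starter unit for the isoprenoid chain. Its probe (rn4, chr17:72557223-72557282) read 2.33, 2.14, 2.33 and 2.16 in the controls and 2.11, 2.29, 2.41 and 1.91 in the stressed rats. As in Hmgcs1, stressed rat 3 was the highest and stressed rat 4 the lowest of all 8. The difference was -0.057 (95% interval -0.33 to 0.22, adjusted p = 0.799).

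Fdft1 encodes squalene synthase, the first enzyme committed to sterols. Its probe (rn4, chr15:42425389-42425448) read 2.29, 2.62, 2.24 and 2.17 in the controls and 2.63, 2.53, 2.56 and 2.35 in the stressed rats. All 4 stressed rats were above control rats 1, 3 and 4, and control rat 2 was above 3 of the stressed rats, so that Fdft1 followed the split of the arrays seen over all probes rather than the labels. The difference was 0.19 (95% interval -0.078 to 0.46, adjusted p = 0.376), and the exact permutation test over the 70 choices of 4 of 8 arrays gave p = 0.171, where the smallest p these choices allow is 0.0286. Before scaling, the signal of Fdft1 was 10457, 11288, 10879 and 10486 in the controls and 10873, 10766, 11344 and 9892 in the stressed rats, with no group apart, while the 75th percentile was lower in the 5 arrays of the first side (1751 to 1945) than in the other 3 (2139 to 2335). Without control rat 2 the difference was 0.29 and was called (adjusted p = 0.0349), in a fit that called 42.4% of all probes, and with the 5′ minus 3′ value of each array as a covariate it was -0.031 (adjusted p = 0.887).

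Sqle encodes squalene epoxidase, a rate-limiting oxygen-dependent step. Its probe (rn4, chr7:96111693-96111752) read 2.88, 3.14, 2.85 and 2.93 in the controls and 2.93, 2.98, 3.12 and 2.71 in the stressed rats. Control rat 2 and stressed rat 3 were the highest and nearly level. The difference was -0.014 (95% interval -0.27 to 0.24, adjusted p = 0.952).

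Lss encodes lanosterol synthase, which closes the sterol rings. Its probe (rn4, chr20:12507646-12507705) read -0.15, 0.16, -0.18 and -0.049 in the controls and -0.086, -0.092, 0.14 and -0.45 in the stressed rats. Again control rat 2 and stressed rat 3 led, and stressed rat 4 was last. The difference was -0.068 (95% interval -0.38 to 0.25, adjusted p = 0.793).

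Cyp51 encodes the lanosterol demethylase that takes lanosterol into the last part of the pathway. Its probe, the only one of the 8 with 10 spots (rn4, chr4:26771049-26771108), read 1.85, 2.14, 1.83 and 1.91 in the controls and 1.90, 1.88, 2.21 and 1.66 in the stressed rats. The order of the rats was close to that in Lss. The difference was -0.020 (95% interval -0.32 to 0.28, adjusted p = 0.941).

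Dhcr7 encodes 7-dehydrocholesterol reductase, the final enzyme of one branch to cholesterol. Its probe (rn4, chr1:204258565-204258624) read 0.92, 1.06, 1.05 and 1.10 in the controls and 0.82, 0.93, 0.85 and 0.58 in the stressed rats. In 3 of the 4 stressed rats it was below all controls, and stressed rat 2 was level with control rat 1. The difference was -0.24 ± 0.093 (SE, 95% interval -0.45 to -0.022), which did not pass the test after adjustment (adjusted p = 0.218, exact permutation p = 0.0571). Before scaling, Dhcr7 had a signal of 3825 to 5002 in the controls and 2904 to 3549 in the stressed rats. Unscaled signals, here and for Insig1 below, also carry the brightness of each array. The 75th percentile was 2139, 1841, 2311 and 2335 in control rats 1 to 4 and 1751 to 1945 in the stressed rats.

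Insig1, the regulator of the set, differed by a like amount the other way. Its probe (rn4, chr4:2578292-2578348) read 1.80, 1.93, 1.87 and 2.03 in the controls and 2.02, 2.29, 2.17 and 2.11 in the stressed rats. In 3 stressed rats it was above all controls, and stressed rat 1 was level with control rat 4. The difference was 0.24 ± 0.086 (SE, 95% interval 0.045 to 0.44, adjusted p = 0.186, exact permutation p = 0.0571). Before scaling, the signal was 7003 to 9544 in the controls and 7125 to 9121 in the stressed rats. Without control rat 2 the adjusted p was 0.069, in a fit that called 42.4% of all probes.

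**Figure D2:**
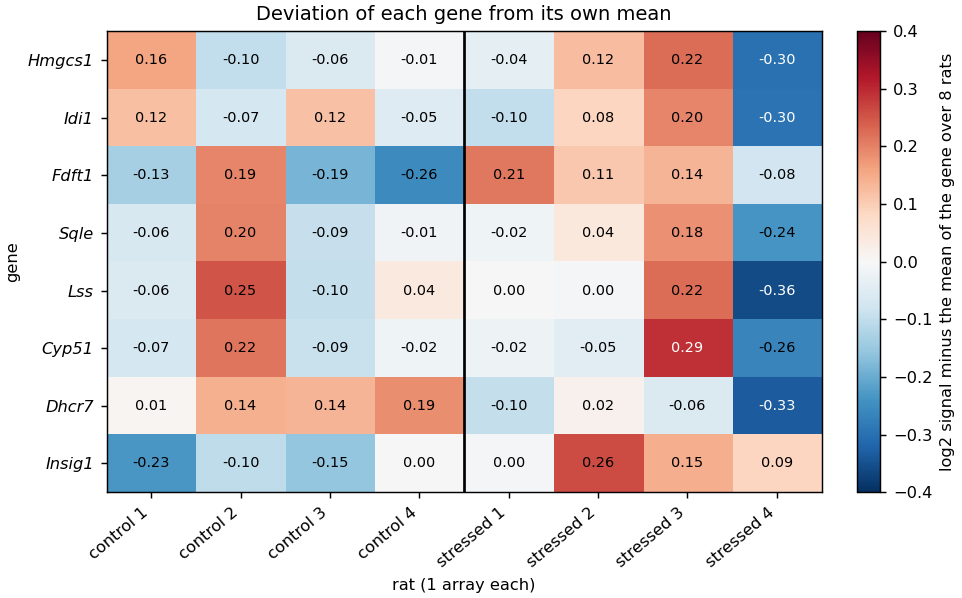
Each cell gives the scaled log2 signal of a gene (row) in a rat (column) minus the mean of that gene over the 8 rats, blue for below and red for above, with control rats left of the black line. Stressed rat 3 is above the mean in 7 of 8 genes and stressed rat 4 below it in 7 of 8, and these are the columns that stand out most.

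In 5 of the 8 genes (Hmgcs1, Idi1, Sqle, Lss and Cyp51) the SD within each group was larger than the difference between the groups. The range over the 8 rats was 0.43 (Sqle) to 0.61 (Lss), and the SD over the 8 rats of each gene lay between the 26.8th and the 41.9th percentile of all tested probes, so none of the genes was among the variable ones. Spots of the same probe on an array had a median range of 0.025 (Fdft1) to 0.10 (Cyp51). The largest range on any array went from 0.040 (Fdft1) to 0.299 (Insig1). For Insig1 this was more than its group difference (0.24), and for Dhcr7 it was less (0.175 against -0.24). The number of spots differs from the number of rats, so these ranges and the range over the rats are not like for like. Averaged over the 8 genes, each scaled to SD 1, stressed rat 4 was lowest (-1.32) and stressed rat 3 highest (0.99), followed by control rat 2 (0.52) and stressed rat 2 (0.44). The other 4 rats lay between -0.30 and -0.064. The highest and the lowest rat were thus in the same group.

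The 28 pairs of the 8 genes had a median Pearson r of 0.496 over the 8 rats, and 24 of the 28 were above 0. Taken as deviations from the group means the median was 0.554, with 27 of 28 above 0. The same median over all pairs of the 20706 gene names tested was 0.0495 (0.0715 for deviations), and 22.5% of all those pairs (21.9% for deviations) were at or above the median of the 8 genes. These are shares of single pairs and do not say how often a set of 8 genes has such a median. The median rested on stressed rat 4. Without that rat it was 0.137, and without stressed rat 3 it was 0.377.

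**Figure D3:**
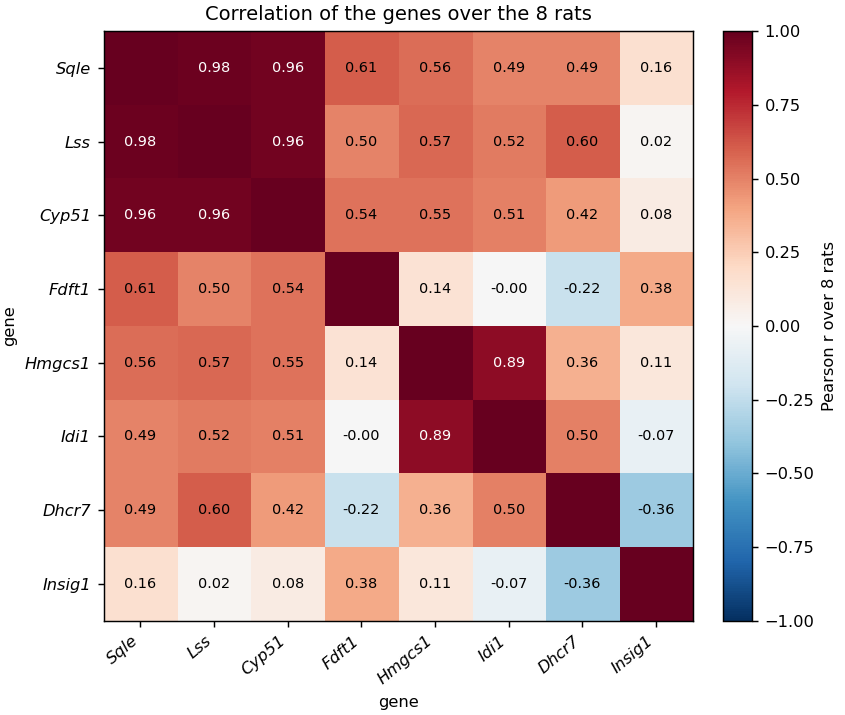
Each cell gives the Pearson r of 2 genes over the 8 rats, from blue (-1) through white (0) to red (1), with the same genes on both axes. Sqle, Lss and Cyp51 form a block with r of 0.96 to 0.98, Hmgcs1 and Idi1 pair at 0.89, and Insig1 has r between -0.36 and 0.38 with the other 7 genes.

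Of the 28 pairs, 4 passed an exact permutation test after Benjamini-Hochberg adjustment at 0.05. That test treats all arrays as exchangeable, while the arrays fall on separate sides over all probes. The genes were also chosen with earlier results known. The p values of all pairs, here and below, are therefore a description and do not establish a relation. Sqle and Lss had r = 0.978 (exact permutation p = 0.000273, adjusted p = 0.0059) and Spearman rho = 0.929 (exact permutation p = 0.00223, adjusted p = 0.0313). Cyp51 and Lss had r = 0.961 (exact permutation p = 0.000422, adjusted p = 0.0059) and rho = 0.976 (exact permutation p = 0.000397, adjusted p = 0.0111). Sqle and Cyp51 had r = 0.963 (exact permutation p = 0.000967, adjusted p = 0.00903) and rho = 0.905 (exact permutation p = 0.00456, adjusted p = 0.0426). These are the enzymes of consecutive steps, from squalene through lanosterol to its demethylation. When the 2 rats farthest from the median of the first gene were left out, r was 0.953, 0.996 and 0.928. For Sqle these were control rat 2 and stressed rat 4, and for Cyp51 control rat 2 and stressed rat 3. Stressed rat 3 or stressed rat 4 thus stayed in each time, and the check cannot say what r is without both.

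Hmgcs1 and Idi1 made the other pair, with r = 0.891 (exact permutation p = 0.00461, adjusted p = 0.0323). Its rho of 0.81 did not pass after adjustment (exact permutation p = 0.0218, adjusted p = 0.152), and without the 2 farthest rats r was 0.619. Hmgcs1 had r of 0.546 with Cyp51, 0.556 with Sqle and 0.572 with Lss, none of which passed, and each was below 0 without the 2 farthest rats (-0.547, -0.36 and -0.492). Control rat 2 was above the mean in Sqle, Lss and Cyp51 (by 0.20 to 0.25) and below it in Hmgcs1 (-0.099) and Idi1 (-0.071). None of the other 24 pairs passed, with a lowest adjusted p of 0.377 in exact permutation tests. As the arrays fall on 2 sides over all probes, with fewer than 6 arrays on each, r was also taken on deviations from the mean of each side, as a description. It was 0.991 for Sqle and Lss, 0.966 for Cyp51 and Lss, 0.961 for Sqle and Cyp51 and 0.899 for Hmgcs1 and Idi1.

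**Figure D4:**
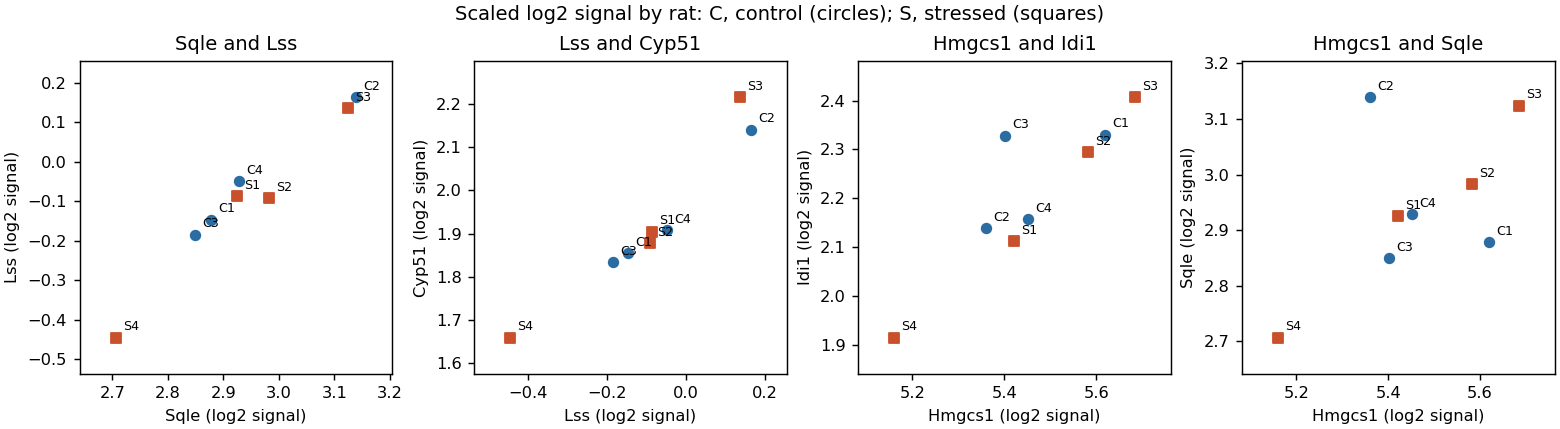
Each panel plots the scaled log2 signal of 1 gene against another in the 8 rats, control rats as circles (C1 to C4) and stressed rats as squares (S1 to S4). Sqle, Lss and Cyp51 lie near a line through all 8 rats, with C2 and S3 together at the top and S4 at the bottom, Hmgcs1 and Idi1 lie near a line with more scatter, and in the panel of Hmgcs1 and Sqle C2 leaves the others.

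Insig1 went least with the rest, with a median r of 0.079 with the other 7 genes, where that of Fdft1 was 0.383 and that of Dhcr7 0.422. In stressed rat 4, the lowest for 6 of the enzymes, Insig1 was above its own mean by 0.086. Dhcr7 was not high in stressed rat 3 (-0.059 from its mean), in which the other 7 genes were. The r of Dhcr7 and Insig1 was -0.363 over the 8 rats and 0.602 on deviations from the group means, and the group means of these genes differ in opposite directions.

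RefSeq promoter windows (GRCr8 assembly) run from 250 bases before to 50 bases after the start of the gene. They were on hand for 6 of the 8 genes (not Sqle or Fdft1) and are shown as a description. The CCAAT box (CCAAT on either strand), which the factor NF-Y binds next to SREBP in many sterol genes, was in 4 of the 6 windows, against 37.5% of all 33469 windows. It was in 10 of the 11 windows of the other sterol enzymes described below. The GC box (GGGCGG on either strand), the motif of Sp1, was in 5 of the 6 windows, in 9 of those 11 and in 33.1% of all. Neither the SRE core searched (TCACNCCAC, 1.12% of all windows) nor the E-box form (TCACNTGA, 3.94%) was in any of the 6 or of those 11. This says only that these letters are not in these windows. The lines give 1 stretch of 30 bases per gene on the strand of the gene, with the CCAAT box in capitals for the first 4 and the GC box for the last 2. In all 4 of the CCAAT stretches the motif is on the opposite strand, read as ATTGG.
Hmgcs1, chr2:53382159-53382188, plus strand: ctgagtccggtgATTGGctgagatagctgc
Idi1, chr17:66547542-66547571, minus strand: gtcgaagatgccATTGGctggcgaccgacc
Lss, chr20:12118295-12118324, minus strand: ggtgatgctctgATTGGccgcgctcgcatc
Insig1, chr4:8057945-8057974, minus strand: cgccctcctcccATTGGctcccgcggcctc
Cyp51, chr4:30991554-30991583, plus strand: acgcagaaagccCCGCCCcgtctgtgacgt
Dhcr7, chr1:208444383-208444412, plus strand: ccccaggggcgtGGGCGGggcggggctggc
The ATTGG of these stretches starts 133 bases before the gene start in Hmgcs1, 35 in Idi1, 82 in Lss and 193 in Insig1. A match to letters is a description and not a bound site, and no binding was measured here. A part of these motifs in the variation of the genes from rat to rat was not tested.

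The other 14 listed enzymes of the pathway were measured as well, and none of them was called, where 3.74% of all tested probes were. Their median fold change was 0.055, with 9 above 0 and 5 below, where 59.6% of all probes were above 0. In 2 of the 14 the groups did not overlap, as in 12.1% of all probes. Mvk, mevalonate kinase, read -0.013, -0.10, -0.025 and -0.061 in the controls and -0.27, -0.20, -0.42 and -0.60 in the stressed rats, a difference of -0.32 ± 0.096 (SE, adjusted p = 0.144). Sc5d, which acts in the step before Dhcr7 in one branch, read 1.08, 0.98, 1.16 and 1.05 in the controls and 1.45, 1.23, 1.59 and 1.24 in the stressed rats, a difference of 0.31 ± 0.10 (SE, adjusted p = 0.166). Leaving out control rat 2 gave calls for Mvk (adjusted p = 0.0402) and Sc5d (adjusted p = 0.0791), in a fit that called 42.4% of all probes.

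In the machinery that senses sterol, 1 of the 5 genes measured was called, where 3.74% of all tested probes were. Mbtps1, the protease S1P, read 0.80, 0.85, 0.73 and 0.84 in the controls and 0.44, 0.45, 0.43 and 0.48 in the stressed rats. All 4 stressed rats were below all controls, control rat 2 included, and 12.1% of all probes had groups that did not overlap. Mbtps1 fell by 0.36 ± 0.062 (SE, adjusted p = 0.0581). It was called in 11 of 19 fits and was below 0 in all 19, and the adjusted p was over 0.1 when any rat other than control rat 2 was left out. S1P also cleaves the stress sensor ATF6 and other proteins. Mbtps2, the protease S2P, differed by 0.48 ± 0.12 (SE, adjusted p = 0.112) and Insig2 by 0.44 ± 0.12 (SE, adjusted p = 0.124). Mbtps2 was dim, with means of -4.97 in the controls and -4.50 in the stressed rats. Insig2 read -2.23, -1.68, -2.11 and -2.06 in the controls and -1.66, -1.49, -1.61 and -1.55 in the stressed rats, with control rat 2 next to the stressed rats. A further Insig2 probe differed by 0.55 ± 0.15 (SE, adjusted p = 0.132). Without control rat 2, Mbtps2 and the first Insig2 probe were called (adjusted p = 0.00471 and 0.00194), in the fit that called 42.4% of all probes. With the 5′ minus 3′ covariate they differed by 0.22 and 0.18. Mbtps2 differed by 0.26 with normexp (adjusted p = 0.578) and by 0.28 with quantile normalization. Srebf2 differed by -0.10 ± 0.062 (SE, adjusted p = 0.37) and Scap by -0.061 ± 0.12 (SE, adjusted p = 0.792). No probe was matched to Srebf1.

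**Figure D5:**
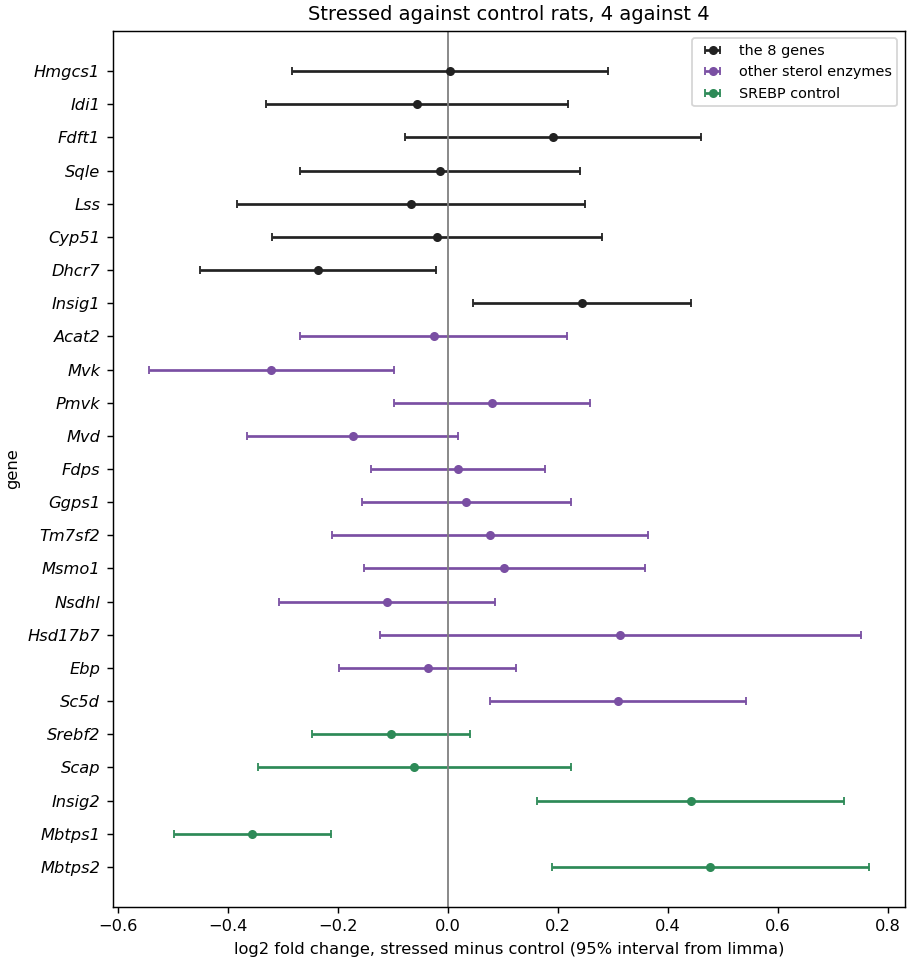
The points are log2 fold changes, stressed minus control, on the x axis, with 95% intervals from limma over 4 against 4 rats, for the 8 genes (black), other sterol enzymes (purple) and the 5 genes of SREBP control (green). Of the genes shown, Mbtps1 is the one that was called, and the intervals of 6 of the 8 genes include 0.

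Of the lists around the pathway, 0 of 7 genes of sterol uptake and 0 of 10 of export and storage were called. Of all tested probes, 3.74% were called, and this share also stands beside the next list. Soat1, which esterifies cholesterol for storage, differed by 1.03 ± 0.29 (SE, adjusted p = 0.132). Its probe was dim. It read -6.96, -5.98, -7.13 and -6.64 in the controls and -5.42, -6.06, -5.19 and -5.93 in the stressed rats. Control rat 2 was thus above stressed rat 2 and apart from the other controls. In fatty acid synthesis 1 of 10 was called: Scd2, a stearoyl-CoA desaturase, rose by 0.31 ± 0.072 (SE, adjusted p = 0.0919), with 5.75, 5.85, 5.75 and 5.74 in the controls and 6.11, 6.10, 6.16 and 5.95 in the stressed rats. Under quantile normalization Scd2 was 0.21 (adjusted p = 0.153).

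Among 14215 gene symbols, the 5 whose values over the 8 rats were most like the mean of the 8 genes were Slc45a3 (r = 0.968), Ctnnbip1 (r = 0.967), Shroom1 (r = 0.960), Acat2 (r = 0.957) and Dnd1 (r = 0.950). Acat2, which makes acetoacetyl-CoA for Hmgcs1, is the sterol enzyme among them. Over 8 rats from so many genes these values are a description only. The other sterol enzymes had a median r of 0.553 with the mean of the 8 genes, the highest after Acat2 being Tm7sf2 (0.926) and Msmo1 (0.883) and the lowest Ggps1 (-0.494). The 5 genes of SREBP control had a median r of 0.064, and all other gene names together 0.138.

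The markers of several cell types were above 0 in their median r with the mean of the 8 genes from rat to rat. The 15 markers of oligodendrocytes and central myelin had a median r of 0.492 and ranged from -0.113 to 0.910, with Mobp, a structural protein of central myelin, at 0.798, Mag, a myelin adhesion protein, at 0.781, Mog at 0.262, Aspa at 0.256 and Opalin at -0.113. Each r is that of 1 probe per gene, and Mobp, Mag and Opalin had further tested probes whose r was not taken. Probes of a gene could disagree. The other Opalin probe differed by 0.92 ± 0.32 (SE) between the groups, against 0.084 ± 0.10 (SE) for the probe used. Medians close to that of the myelin markers were seen for oligodendrocyte precursors (0.556), microglia (0.491) and endothelial cells (0.465). The mean level of the 15 myelin markers was 1.94, 2.67, 1.99 and 2.13 in control rats 1 to 4. In stressed rats 1 to 4 it was 2.59, 2.68, 2.82 and 2.39. It thus followed the split of the arrays, with control rat 2 and all stressed rats above the other 3 controls. The 3 genes of red blood cells, Hba-a1, Hbb and Alas2, had a median r of 0.799, and their mean level was also highest in stressed rat 3 (3.05), next in control rat 2 (2.81) and lowest in stressed rat 4 (1.93). Neuron markers had a median r of -0.134 and motor neuron markers one of -0.432. The part of these cell types in the variation of the 8 genes was not tested.

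Between the groups, 1 of the 15 myelin markers was called, where 3.74% of all tested probes were. Mog, a protein of the outer face of myelin, read 1.58, 2.34, 1.68 and 2.22 in the controls and 2.87, 2.86, 2.96 and 2.71 in the stressed rats and rose by 0.90 ± 0.18 (SE, adjusted p = 0.0721). With the 5′ minus 3′ value as a covariate, Mog differed by 0.52 (adjusted p = 0.105). The list had a median of 0.27, with 12 of 15 above 0, where 59.6% of all probes were. But genes such as Cnp (1.69 ± 0.58, SE, adjusted p = 0.181) followed the split of the arrays, with control rat 2 at 2.84 and the other controls at 0.034 to 0.52. Pecam1, 1 of 4 endothelial markers, rose by 0.40 ± 0.095 (SE, adjusted p = 0.0927). Scd2, Mog and Pecam1 were not called with normexp, nor when any 1 rat other than control rat 2 was left out. None of the 4 markers of oligodendrocyte precursors, 5 of Schwann cells, 7 of astrocytes, 7 of microglia, 7 of neurons, 3 of motor neurons, 3 of red blood cells or 5 of meninges and fibroblasts was called by limma.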

How the data were processed

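Total RNA of 8 rats was labelled with Cy3 and hybridised to Agilent SurePrint G3 rat arrays. The intensity values deposited by the authors are the processed signals of Agilent Feature Extraction 10.7.3.1, from which, per the file headers, the software took off background and a spatial trend, array by array. The authors' table of values holds the same intensity rounded (all 503808 values within 0.06), with no normalization between arrays. Here 4259 control spots were left out, outlier spots set to missing, log2 signals scaled to each array's 75th percentile and spots of a probe averaged. A probe was above background where at least 0.5 of its spots were. Groups were compared with limma 3.58.1 in R 4.3.3 with no covariate and Benjamini-Hochberg adjustment over 23677 probes. Exact tests are two-sided. As arrays give no counts, their number limits the precision.

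The 8 genes, the lists and the alternatives were chosen with earlier results of these data known. The alternatives were normexp (offset 50), quantile normalization, the table of values, other filters, a variance trend, array weights, a replicate block, 1 probe per gene symbol, the 5′ minus 3′ covariate and leaving out each array. Of the other genes, all sterol enzymes and SREBP control genes could be named, the 5 most like the mean of the 8, and in each further list the called genes and the 2 largest differences. Mobp, Mag, Aspa, Opalin and Hbb fell outside this rule and were chosen with their values known. The probe with the highest mean stood for a gene. Symbols were updated by accession through RefSeq. Fits were tested on simulated data. Some genes of these lists are counted but not reported by name here. The miRNA arrays were not used here.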

Additional observations from a re-analysis of the deposited data

How the results depend on the processing

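Of the 8 genes, none was called under the alternatives tried, except with array weights, which called 3 at FDR below 0.1 (Fdft1 and Insig1 higher, Dhcr7 lower) and 2 at 0.05, where 50.6% and 40.7% of all probes were called, and without control rat 2, which called 2 (Fdft1 and Insig1) and 1, where 42.4% and 32.3% were. Leaving out each rat in turn gave 0 to 2 calls at 0.1 and 0 to 1 at 0.05. Array weights gave control rat 2 the lowest weight (0.107). Dhcr7 was below 0 and Insig1 above 0 in all 19 fits, with ranges of -0.29 to -0.16 and 0.20 to 0.29.

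Values near 0 changed sign. Hmgcs1 was -0.026 with normexp and -0.070 to 0.10 when each rat was left out. Sqle was 0.011 with quantile normalization, 0.057 with array weights and -0.077 to 0.062 with rats left out. Cyp51 was 0.0025 with quantile normalization, 0.031 with array weights and -0.12 to 0.065 with rats left out. Lss was 0.013 with array weights and -0.15 to 0.040 with rats left out. With the 5′ minus 3′ covariate Idi1 was 0.012 and Fdft1 -0.031, and Idi1 was -0.13 to 0.032 with rats left out.

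The median pairwise r was 0.137 to 0.522 with rats left out, and 0.616 on deviations from the means of the 2 sides of the arrays, an alternative chosen after seeing the data. Over all probes, calls at FDR below 0.1 and 0.05 were 885 and 113. They were 215 and 39 with normexp, 3010 and 13 with no filter, 11983 and 9639 with array weights, 2303 and 404 with the covariate, 0 and 0 with the replicate block, and 0 to 10038 and 0 to 7655 with rats left out (10038 and 7655 without control rat 2). Calls at 0.05 were 172 with quantile normalization, 237 with the filter on all 8 arrays, 353 with the variance trend and 53 with 1 probe per gene symbol. Of the calls at 0.1, 655 were higher and 230 lower in stressed rats, and 715 and 451 with quantile normalization. Of the 106 genes tested in the other lists, 4 were called at 0.1, where 3.74% of all probes were. Calls in these lists were 1 with normexp, 7 with quantile normalization, 10 with no filter, 9 with the variance trend, 45 with array weights, 0 with the replicate block and 0 to 40 with rats left out. The cause of these changes was not tested. Same-numbered rats of the 2 groups shared a column of the slide, so the replicate block is also a block by column. Their deviations correlated at -0.087 to 0.305, which cannot decide whether the numbers pair the rats, and the labels do not say. The replicate block called none of the 8 genes.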
